A study of Mus musculus with 9 samples.

Results

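Genes that cells switch on when oxygen is scarce, other than those of glycolysis and those of the oxygen-sensing machinery itself, were followed in mouse embryonic stem cells (mESC) exposed to a nitric oxide donor. The group held 33 of the 29069 genes in the table, from secreted factors such as *Vegfa* to collagen-modifying enzymes, histone demethylases and mitochondrial proteins. Its members were chosen by name, as genes known to be induced by hypoxia, but the list was drawn up when several hypoxia-response genes had already been seen to be lower with the donor in these same samples. The fold changes given here are therefore a description of the list and not a test of it. In total 32 members had a mean normalised read count above 5 over the 9 samples and entered the fit across 18156 genes. The exception was *Lox*.

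Cells of the established, feeder-free mES-D3 line, at passages p5 to p8, spent 24 h in GS, DM or NO medium (3 replicates of each). Ground-state medium (GS) was serum-free N2B27 with the MEK inhibitor PD0325901 at 1 μM, the GSK-3 inhibitor CHIR99021 at 3 μM and leukaemia inhibitory factor (LIF) at 20 ng/mL. Differentiation medium (DM) was DMEM with 10% fetal bovine serum and 1 g/L glucose, without inhibitors or LIF. NO medium was DM with 250 μM of DETA/NO, which releases nitric oxide. The comparison of NO with DM thus concerned the donor alone, while that of DM with GS mixed a loss of inhibitors and LIF with a change of basal medium and serum. No label gave an oxygen level. RNA was isolated from a dish of its own for each sample. The sources do not say whether the dishes were started separately, so the errors measure the spread between these dishes.

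In the hypoxia response, prolyl hydroxylases that need oxygen mark the alpha subunits of hypoxia-inducible factor (HIF) for capture by the von Hippel-Lindau protein and degradation. When oxygen falls, the alpha subunit is kept, pairs with Arnt and binds a short hypoxia-response element in the DNA of its targets, whose core letters are ACGTG or GCGTG. Beyond glycolysis, the targets promote vessel growth, extracellular acid handling and collagen maturation, restrain growth and alter mitochondrial and lipid metabolism. Several targets are themselves enzymes that use oxygen, as are the JmjC-domain histone demethylases and the collagen hydroxylases.

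The core letters were searched on both strands of the RefSeq promoters (GRCm38.p6, 250 bases before to 50 after each start). The letters themselves were not used to pick the members. Because the members were picked as known hypoxia-induced genes, however, the shares below are not independent of that choice. A promoter was at hand for 25 of the 33 members, the others being *Stc1*, *Plod2*, *Lox*, *Loxl2*, *Kdm4b*, *Bhlhe40*, *Zfp395* and *Ndrg1*. A gene counted as holding the letters when any of its promoter windows did. These members had 1 to 4 windows each, and a gene with more windows had more sequence searched. The number of windows was not matched between members and other genes. ACGTG was present in 19 of the 25 (76.0%), against 21.8% of all 27025 genes with a promoter and 28.1% of the 11521 genes with a promoter that were tested here. ACGTG or GCGTG was present in 24 of the 25 (96.0%), against 46.7% and 65.3%, and *Car12* was the member without either. The palindrome CACGTG, which holds ACGTG on each strand, was found in 5 members (20.0%), against 8.09% of all genes and 11.2% of tested genes. Such a match is a description of letters and not a binding site.

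Stretches around the core letters are shown for 7 members whose values were lower in NO than in DM, because they span the classes of gene described here. Each is written 5′ to 3′ on the strand of the gene, and the capitals mark 1 match to the core letters, which reads CACGT or CACGC where it lies on the opposite strand. Further matches within a stretch, as in those of *Vegfa*, *Stc2*, *Fam162a* and *P4ha2*, are left in lower case. The positions are chr17:46025360-46025384 for *Vegfa*, chr11:31370278-31370302 for *Stc2*, chr10:59323270-59323294 for *P4ha1*, chr8:46000077-46000100 for *Ankrd37*, chr14:45318621-45318645 for *Ero1l* (Ero1a in RefSeq), chr16:36071628-36071652 for *Fam162a* and chr16:56886315-56886339 for *Tmem45a*. *P4ha1* lies on the plus strand and the other 6 on the minus strand. *Vegfa* had 2 promoter windows. The stretch shown lies inside the gene, upstream of an internal start, and the other window held no match. The stretches of *Ankrd37* and *Ero1l*, each with 1 window, also lie inside the gene as placed by GENCODE.
Vegfa: agtgcgtgccCACGTcagagagcaa
Stc2: ccacgcaaacGCGTGgccgccgcca
P4ha1: tgacagagcgCACGTagcgagggct
Ankrd37: cccagcagtACGTGcctagctcgg
Ero1l: cgcgccgctgCACGTccgcagggga
Fam162a: gctcgtcgcgCACGTcccgcacgcc
Tmem45a: accccactgcCACGCagtgccacat

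For comparison, 4 members whose values were not lower in NO carried the same letters. They were *P4ha2* (chr11:54100836-54100860, plus strand), *Wsb1* (chr11:79254863-79254887, minus strand), *Ddit4* (chr10:59951943-59951967, minus strand) and *Hilpda* (chr6:29272573-29272597, plus strand).
P4ha2: tgcatcgcatACGTGcagcgcgtgg
Wsb1: cggttcggtcACGTGcattatataa
Ddit4: aacgttgcgaACGTGcgcccggtgc
Hilpda: tggccagcggACGTGccccagggcg

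Among members with an adjusted p under 0.05 and lower values in NO than in DM, ACGTG was present in 7 of 9. Among the other members with a promoter it was present in 12 of 16. *Vegfa* and *Kdm4c* are among the 7 only through an internal start, since the other window of each held no match. *Stc1*, *Ndrg1*, *Loxl2* and *Kdm4b*, all called lower in NO vs DM, had no promoter at hand and are missing from the 9.

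**Figure D1:**
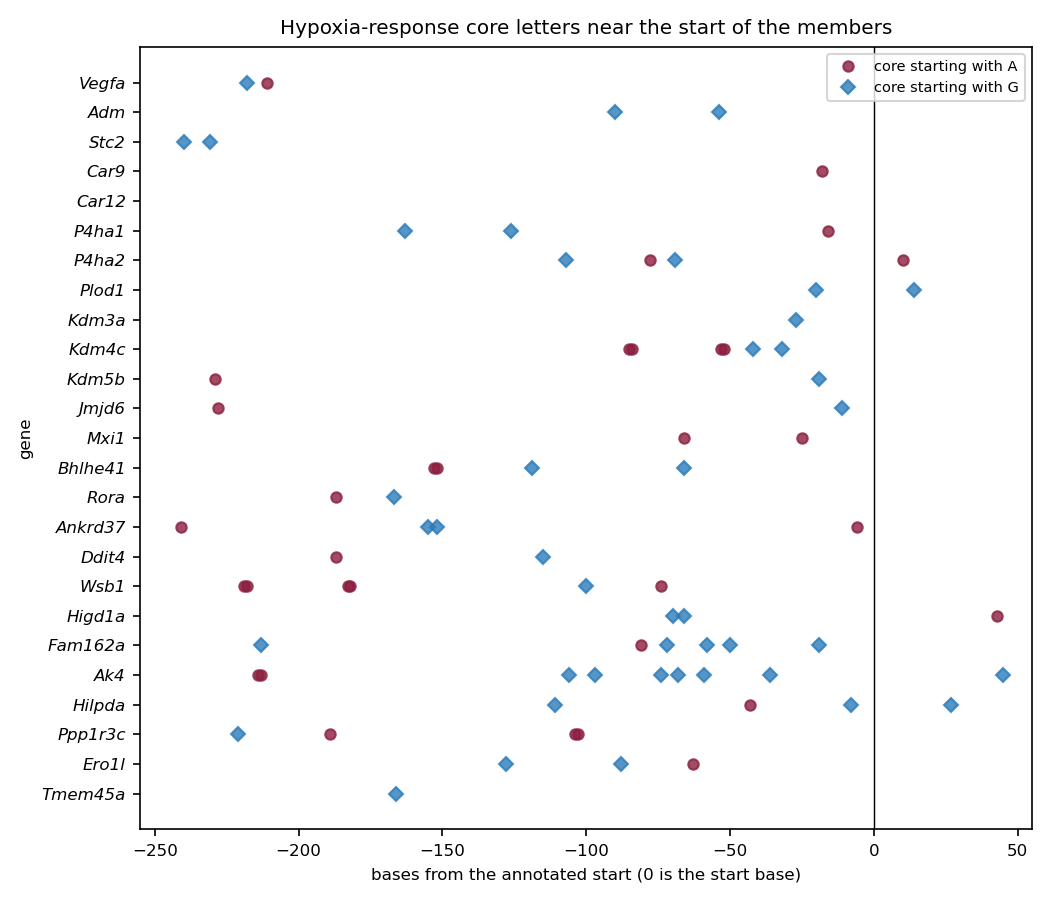
Position of the 2 forms of the hypoxia-response core (searched on both strands) in the promoter windows of the 25 members that had one, in bases from the annotated start on the x axis; where a gene has several annotated starts, distances to each are drawn. Only the row of *Car12* is empty, and the matches are spread over the whole window.

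Normalised read counts summed to between 18290445 and 20508679 per sample, and the spacing of low values put the depth at 14302054 to 27061091 assigned reads, so that 1 read was worth 0.701 to 1.323 normalised counts. Within a medium the log2 values of a tested member had a median SD of 0.216 for GS, 0.21 for DM and 0.315 for NO, close to the 0.214, 0.245 and 0.307 of all tested genes. The NO samples were spread out: NO replicate 2 lay at 131.3 on the first principal component of all genes, against 25.9 and 67.1 for replicates 1 and 3. Counts are therefore also given without it. Fold changes are differences of means of log2(value + 1) with their SE from limma (n = 3 per medium), and a gene was called at a Benjamini-Hochberg adjusted p under 0.05 over all tested genes together with at least a 2-fold change.

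Relative to DM, 8 of the 32 members were called lower in NO and 0 higher. The lower members were *Stc1*, *Stc2*, *P4ha1*, *Loxl2*, *Kdm4b*, *Ankrd37*, *Ndrg1* and *Tmem45a*. Of all tested genes 1.77% were called lower and 6.78% higher. With the adjusted p alone, 13 members were lower (5.24% of all genes), adding *Vegfa*, *Kdm4c*, *Higd1a*, *Fam162a* and *Ero1l*, and 1 was higher, *Wsb1* (9.01% of all genes). The 3 NO values lay below the 3 DM values in 16 members (15.3% of all genes) and above them in 2, *Car12* and *Wsb1* (18.1% of all genes). Because the list was drawn up with this comparison in view, nothing is read from these shares. Without NO replicate 2, 9 members were called lower and 0 higher, and the adjusted p alone again gave 13 lower and 1 higher. Without NO replicate 1, 7 were called lower and 5 higher. With DM replicate 3 left out, with equal totals or with quantile normalisation, 1 was called higher. The shares of all tested genes called in these refits were not computed, so nothing about the members is read from the changes in count.

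Relative to GS, 7 members were called lower in NO, namely *Stc1*, *Stc2*, *P4ha1*, *Ankrd37*, *Ndrg1*, *Higd1a* and *Ero1l*, and 1 higher, *Car12*. The shares of all genes were 1.64% and 10.1%. With the adjusted p alone the numbers were 13 lower (6.64% of all genes) and 1 higher (13.4%), the added members being *Vegfa*, *Kdm3a*, *Kdm4b*, *Mxi1*, *Fam162a* and *Ak4*. Without NO replicate 2, 9 members were called lower and 1 higher, without NO replicate 1, 6 and 5, and without GS replicate 2, 8 and 0. Scaling to equal totals left 4 called lower, without *P4ha1*, *Ero1l* and *Higd1a*. For these refits too the shares of all genes were not computed, and nothing is read from the changes. The NO samples are the same in both comparisons, which are therefore not independent of each other. Between DM and GS, without the donor, 1 member was called higher, *Tmem45a* (2.94% of all genes), and 1 lower, *Ak4* (1.27% of all genes). The adjusted p alone added *Plod1* and *Kdm4c* as higher, for 3 in all (4.37% of all genes), and left *Ak4* as the 1 lower member (2.32% of all genes).

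The median log2 fold change of the 32 members was -0.47 for NO vs DM, -0.25 for NO vs GS and 0.05 for DM vs GS, where the median of all tested genes was 0.00, -0.02 and 0.00. Fold changes below 0 were found for 22, 20 and 15 members in these comparisons (68.8%, 62.5% and 46.9%), against 49.9%, 51.3% and 50.1% of all tested genes. The members were spread, with quartiles of their fold changes at -1.01 and 0.11 in NO vs DM.

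**Figure D2:**
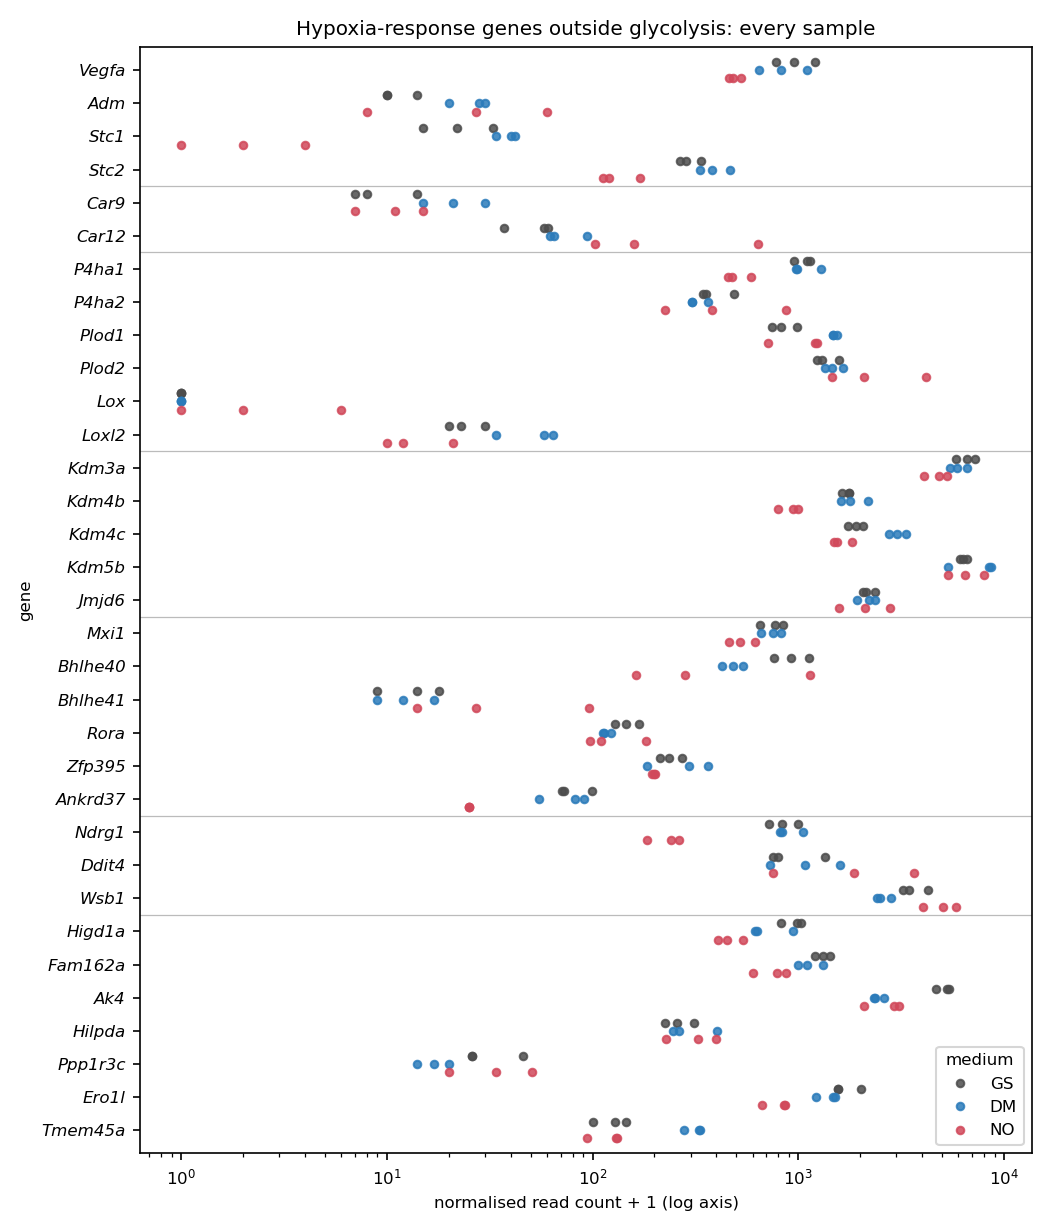
Normalised read count plus 1 (log axis) of all 33 members in every sample, coloured by medium, with lines between the functional classes. The 3 NO points of *Stc1*, *Stc2*, *P4ha1*, *Kdm4b*, *Ankrd37* and *Ndrg1* lie to the left of all 6 GS and DM points, whereas those of *Car12*, *Bhlhe40* and *Bhlhe41* are drawn apart by 1 sample.

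**Figure D3:**
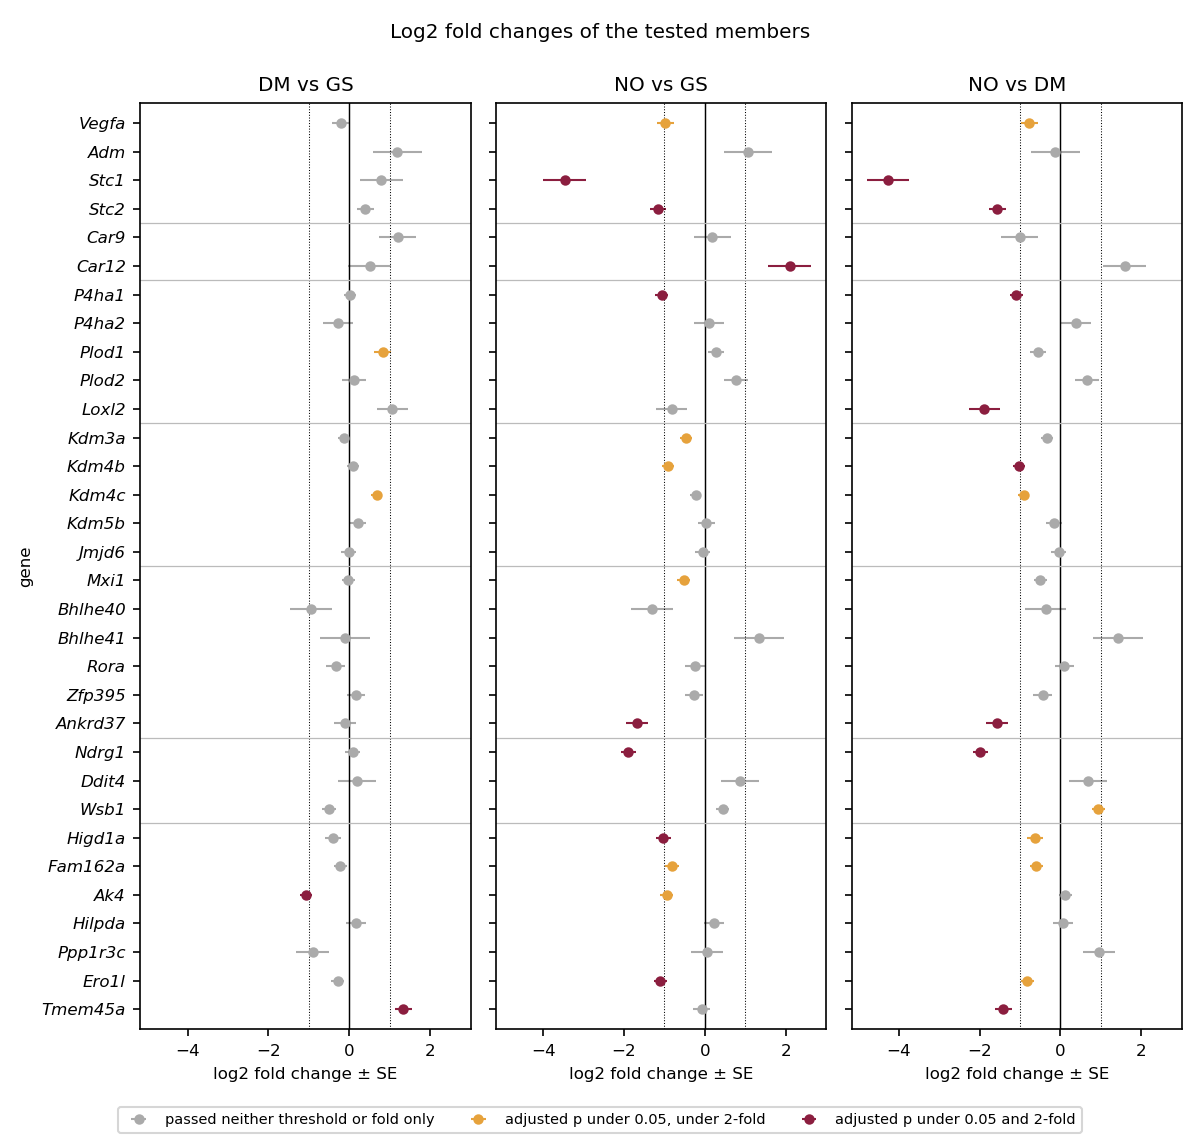
Log2 fold change (points) with SE (bars) of the 32 tested members in the 3 comparisons, dotted lines marking a 2-fold change. Called members are dark, and in NO vs DM all 8 of them lie left of the line at -1.

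Of the 4 secreted factors 2 were called lower in NO vs DM, including the member with the most negative fold change. *Stc1*, which encodes stanniocalcin 1, a glycoprotein hormone that acts on calcium and phosphate handling (ENSMUSG00000014813, chr14:69029238-69041804, plus strand, GRCm38), had normalised counts of 32, 14 and 21 in GS, 39, 41 and 33 in DM, and 0, 3 and 1 in NO. The NO values thus lay far below both other media in each sample. Pooled over replicates they corresponded to about 3 reads, against 134 in DM and 62 in GS. Per assigned read this was 35.5-fold less than in DM, with a 95% exact interval of 11.9 to 175 that covers counting error only, and 20.3-fold less than in GS (6.62 to 101). The fitted log2 fold change was -4.27 ± 0.53 (SE) in NO vs DM and is shrunken by the added 1. Exons of *Stc1* overlap those of the gene model *Gm41192* on the opposite strand. The authors left out reads that matched several genes, and strand use in the counting is not given in the sources used here. How reads in the shared stretch were counted is therefore not known.

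Its paralogue *Stc2* (chr11:31357307-31370074, minus strand) had normalised counts of 337, 282 and 265 in GS, 379, 333 and 462 in DM and 111, 170 and 119 in NO. Here too every NO sample was below every other sample, and the log2 fold change was -1.56 ± 0.21 in NO vs DM and -1.16 ± 0.21 in NO vs GS. *Vegfa*, the main growth factor for blood vessels (chr17:46016993-46032369, minus strand), had 1204, 774 and 957 in GS, 645, 821 and 1097 in DM and 479, 526 and 459 in NO. The 3 NO values were close together and below the rest, at -0.78 ± 0.21 vs DM and -0.98 ± 0.21 vs GS, short of a 2-fold change. *Adm*, which encodes the vasodilator peptide adrenomedullin, showed no such order. It had 13, 9 and 9 in GS, 19, 29 and 27 in DM and 7, 59 and 26 in NO, so that the NO samples alone spanned an 8.43-fold range around the DM values.

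Carbonic anhydrases 9 and 12 sit on the cell surface and turn carbon dioxide into bicarbonate and protons outside the cell. *Car12* (chr9:66713686-66766845, plus strand) had normalised counts of 60, 36 and 57 in GS, 61, 64 and 93 in DM and 102, 639 and 158 in NO. All 3 NO values were above the others, but replicate 2 was 4.04-fold above the next. Its log2 fold change was 2.11 ± 0.53 in NO vs GS, a value that became 1.33 without NO replicate 2 and 2.65 without NO replicate 1. The call was lost without GS replicate 2 (1.88). In NO vs DM its log2 fold change was 1.60 ± 0.53 and it was not called. *Car9*, one of the most widely used marker genes of hypoxia, stayed near the limit of detection, at 7, 6 and 13 in GS, 14, 20 and 29 in DM and 14, 6 and 10 in NO. The NO and DM values of *Car9* overlapped, with a log2 difference of -1.01 and a 95% interval of -2.03 to 0.01. Each of its values rests on 5 to 29 estimated reads.

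Among the collagen-modifying enzymes, *P4ha1* and *P4ha2*, which encode catalytic subunits of collagen prolyl 4-hydroxylase, were both expressed, with different patterns. *P4ha1* (chr10:59323296-59373304, plus strand) had normalised counts of 1097, 955 and 1135 in GS, 1284, 978 and 988 in DM and 456, 589 and 477 in NO. Every NO sample was below every GS and DM sample, by 2.13-fold on average against DM (log2 -1.09 ± 0.16) and by 2.1-fold against GS (-1.07 ± 0.16). *P4ha2* had 485, 356 and 345 in GS, 302, 303 and 361 in DM and 225, 873 and 379 in NO, so that the NO values lay on both sides of the DM values (log2 0.39, 95% interval -0.43 to 1.21).

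The lysyl hydroxylases, which prepare collagen for cross-linking, also differed from each other. *Plod1* had 988, 823 and 744 in GS, 1475, 1480 and 1543 in DM and 1225, 714 and 1207 in NO. It was higher in DM than in GS by 0.82 ± 0.20 on the log2 scale, and in NO lay below DM in each sample without passing the adjusted p. *Plod2* had 1298, 1226 and 1578 in GS, 1648, 1456 and 1347 in DM and 1461, 4177 and 2078 in NO. Here NO replicate 2 stood apart and the groups overlapped. *Loxl2*, a lysyl oxidase that forms the cross-links (chr14:69609068-69695834, plus strand), had 29, 19 and 22 in GS, 63, 57 and 33 in DM and 11, 20 and 9 in NO. Its log2 fold change was -1.88 ± 0.39 in NO vs DM, resting on low values and on DM values above those of GS, since NO and GS overlapped. Its exons overlap those of *Gm27177* on the other strand and *Mir6950*. *Lox* itself was at 0 in all 6 GS and DM samples and at 1, 5 and 0 in NO. A value of 0 allows up to 3 reads, or 2.1 to 3.97 normalised counts in these 6 samples, so that no difference could be shown.

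The JmjC-domain enzymes use oxygen, iron and 2-oxoglutarate, most of them to remove methyl groups from histone H3. *Kdm4b* (chr17:56326062-56402870, plus strand) had normalised counts of 1771, 1757 and 1627 in GS, 1619, 1782 and 2173 in DM and 793, 944 and 997 in NO. The NO samples were lower by 1.02 ± 0.15 on the log2 scale than DM and by 0.92 ± 0.15 than GS. Its paralogue *Kdm4c* followed another course: 1900, 1733 and 2051 in GS, 3319, 3023 and 2773 in DM and 1832, 1545 and 1491 in NO. It was higher in DM than in GS by 0.68 ± 0.13, and in NO lower than in DM by 0.91 ± 0.13, with NO and GS overlapping. *Kdm3a* lay between 4098 and 5298 in NO, below the 5456 to 6582 of DM, and its log2 difference of -0.34 ± 0.15 did not pass. *Kdm5b* ranged from 5352 to 8683 over all 9 samples and *Jmjd6* from 1577 to 2788, with overlapping groups in each comparison. For *Jmjd6*, the 95% interval in NO vs DM was -0.45 to 0.37.

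Of the nuclear regulators, *Ankrd37*, a small ankyrin-repeat protein gene (ENSMUSG00000050914, chr8:45996902-46005707, minus strand), had normalised counts of 72, 70 and 98 in GS, 90, 81 and 54 in DM and 24 in each of the 3 NO samples. Its log2 fold change was -1.57 ± 0.27 in NO vs DM and -1.68 ± 0.27 in NO vs GS. Its exons overlap those of *Lrp2bp* and *Ufsp2* on the opposite strand. *Mxi1*, whose product competes with MYC for MAX, had 845, 652 and 771 in GS, 749, 660 and 819 in DM and 613, 457 and 518 in NO. The difference of -0.49 ± 0.16 between NO and DM passed the adjusted p only with the replicate block (SE 0.15).

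The basic helix-loop-helix repressors *Bhlhe40* and *Bhlhe41*, which also act in the circadian clock, were dominated by NO replicate 2. *Bhlhe40* had 1131, 762 and 917 in GS, 427, 540 and 481 in DM and 162, 1136 and 280 in NO. Its NO samples 1 and 3 were below all DM samples while replicate 2 was above them. *Bhlhe41* had 8 to 17 in GS, 8 to 16 in DM and 13, 95 and 26 in NO. The nuclear receptor gene *Rora* (96 to 180 over all samples) and the zinc finger gene *Zfp395* (183 to 362) had overlapping NO and DM values.

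The growth and stress regulators went separate ways. *Ndrg1*, a stress-induced gene that restrains growth (ENSMUSG00000005125, chr15:66929318-66969640, minus strand), had normalised counts of 1000, 721 and 830 in GS, 818, 834 and 1052 in DM and 182, 240 and 262 in NO. No NO sample came near the others, and the level was 3.96-fold lower in NO vs DM (log2 -1.99 ± 0.19) and 3.73-fold lower in NO vs GS (-1.90 ± 0.19). Its exons overlap those of the models *Gm17035* and *Gm2895* on the opposite strand. *Ddit4*, an inhibitor of mTORC1, had 1352, 756 and 798 in GS, 724, 1075 and 1586 in DM and 750, 3641 and 1868 in NO, and its NO and DM values overlapped. *Wsb1*, the substrate receptor of a ubiquitin ligase, was the member with higher values in NO than in DM that passed the adjusted p. It had 3435, 3221 and 4289 in GS, 2503, 2399 and 2813 in DM and 4039, 5821 and 5069 in NO. The difference from DM was 0.94 ± 0.16 on the log2 scale, just under 2-fold, and it was called when totals were scaled to be equal (1.02), with quantile normalisation (1.06) or without DM replicate 3 (1.01). NO and GS overlapped for *Wsb1*, whose DM values were the lowest.

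The mitochondrial, metabolic and membrane genes held 1 of the called members in NO vs DM and 2 in NO vs GS. *Higd1a*, a small inner membrane protein that binds respiratory complexes (chr9:121848563-121858362, minus strand), had normalised counts of 979, 826 and 1027 in GS, 626, 615 and 941 in DM and 404, 449 and 536 in NO. The log2 fold change was -1.03 ± 0.19 against GS and -0.63 ± 0.19 against DM. *Fam162a*, a mitochondrial protein gene linked to cell death in hypoxia, had 1319, 1200 and 1432 in GS, 1315, 1104 and 993 in DM and 603, 874 and 791 in NO. All NO values were below the others, and the difference of -0.60 ± 0.17 in NO vs DM no longer passed the adjusted p with the replicate block (SE 0.18). Exons of *Higd1a* and *Fam162a* overlap those of *Gm47112* and *Wdr5b*, both on the opposite strand.

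The mitochondrial adenylate kinase gene *Ak4* (chr4:101419277-101466995, plus strand) behaved differently. It had 4661, 5268 and 5428 in GS, 2606, 2339 and 2365 in DM and 3080, 2089 and 2909 in NO. Both serum media lay well below GS, by 1.07 ± 0.16 in DM and by 0.94 ± 0.16 in NO, and NO and DM overlapped (log2 0.13, 95% interval -0.22 to 0.47).

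*Ero1l*, which encodes an oxidase that forms disulphide bonds in the endoplasmic reticulum (chr14:45283087-45318771, minus strand), had normalised counts of 1552, 1552 and 2012 in GS, 1471, 1508 and 1223 in DM and 854, 865 and 664 in NO. Its log2 fold change was -1.10 ± 0.16 against GS and -0.82 ± 0.16 against DM. *Tmem45a*, a membrane protein gene (chr16:56805161-56886166, minus strand), had 100, 128 and 144 in GS, 332, 276 and 327 in DM and 130, 93 and 129 in NO. DM stood above both other media, by 1.33 ± 0.21 against GS and with -1.41 ± 0.21 in NO vs DM, while NO and GS overlapped (log2 -0.08, 95% interval -0.54 to 0.38). *Hilpda*, whose product inhibits lipolysis at lipid droplets, ranged from 225 to 402 over the 9 samples without an order of media. *Ppp1r3c*, a glycogen-targeting subunit of protein phosphatase 1, had 45, 25 and 25 in GS, 13, 19 and 16 in DM and 19, 50 and 33 in NO, and its NO and DM values touched at 19.

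NO replicate 2 had the highest NO value in 19 of the 32 members (59.4%, against 41.8% of all tested genes) and was more than 2-fold above the next NO sample in 7 (21.9%, against 7.94%). These were *Adm*, *Stc1*, *Car12*, *P4ha2*, *Plod2*, *Bhlhe40* and *Bhlhe41*, and for *Stc1* the values were 3 and 1. Replicate 1 had the lowest NO value in 19 members (59.4%, against 38.2% of all tested genes). When NO replicate 1 was left out, *Adm*, *Bhlhe41*, *Car12*, *Ddit4* and *Plod2* were called higher in NO vs GS. In NO vs DM, *Wsb1*, *Ddit4*, *Bhlhe41*, *Car12* and *Ppp1r3c* were called higher in that fit, where the full set of samples gave 0. How many of all tested genes were called without this sample was not computed. *Ankrd37*, *Ndrg1*, *Stc1*, *Stc2* and *Tmem45a* were called lower in NO vs DM in each of the 9 fits that left out 1 sample. The other 3 lay close to a threshold: *P4ha1* (-0.96) and *Loxl2* (-1.71) were not called without DM replicate 1, nor *Kdm4b* without DM replicate 3 (-0.90) or NO replicate 1 (-0.93), with equal totals (-0.94) or with quantile normalisation (-0.99). In NO vs GS, *Ankrd37*, *Ndrg1*, *Stc1* and *Stc2* were called in each of these fits. *Higd1a* (-0.97) and *Ero1l* (-0.98) were not called without GS replicate 3, *Higd1a* (-0.94) and *P4ha1* (-0.998) without NO replicate 1, and *Ero1l* (-0.98) without NO replicate 3.

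**Figure D4:**
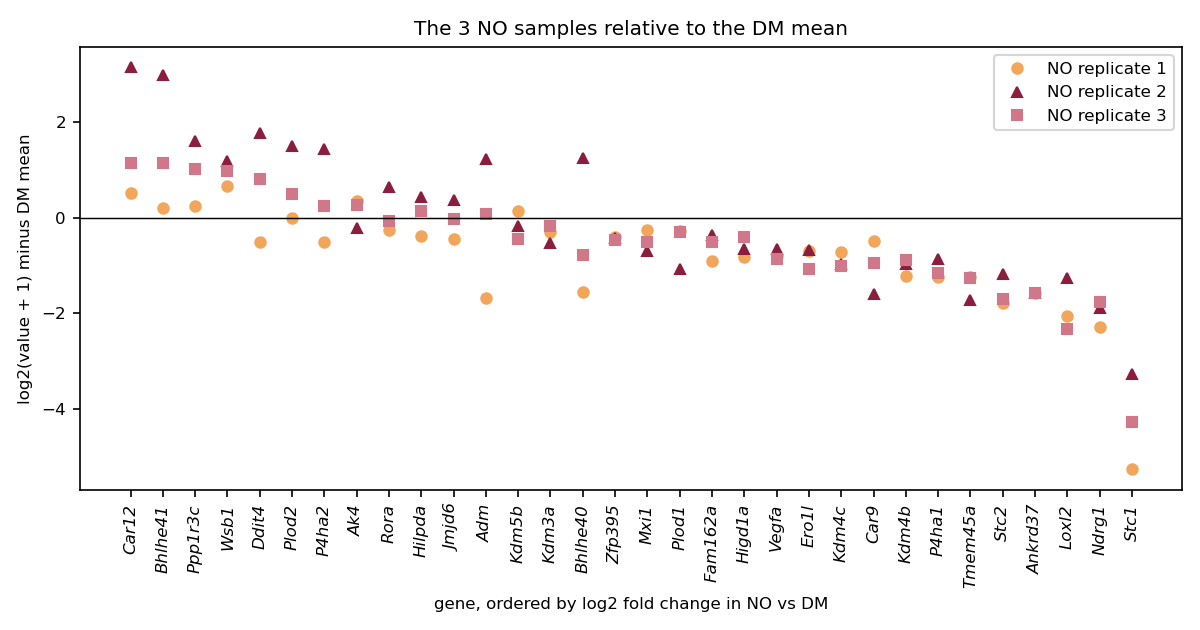
Log2(value + 1) of each NO sample minus the mean of the 3 DM samples for the 32 tested members, ordered by their fold change in NO vs DM. The symbols of the 3 samples nearly coincide for *Ankrd37* and lie close together for *Ndrg1*, *P4ha1* and *Kdm4b*, while replicate 2 stands above the others for *Car12*, *Bhlhe41* and *Bhlhe40*.

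Other genes of the pathway, and of stress responses, were taken from lists of known function. Of the 20 glycolytic HIF targets 13 were called lower and 1 higher in NO vs DM, with a median log2 fold change of -1.41 against -0.47 for the 32 members here. The extremes among them were the lactate exporter *Slc16a3* (-3.28 ± 0.18) and the aldolase *Aldoc* (-2.39 ± 0.28). Of the 13 genes of the HIF machinery 3 were called lower and 0 higher, with *Egln3* (-2.97 ± 0.21) and *Egln1* (-1.37 ± 0.16), both prolyl hydroxylases and HIF targets themselves, at the extreme and a median of -0.27. Of 3 mitophagy receptors 1 was called, *Bnip3* (-4.25 ± 0.18). The difference between these lists and the members was not tested.

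Genes of the integrated stress response were split, 1 of 12 called higher (*Atf3*, 3.43 ± 0.57) and 3 lower (among them *Chac1*, -1.67 ± 0.48), with a median of -0.08. Of 14 p53 target genes 7 were called higher and 0 lower, with a median of 1.06, led by the death receptor gene *Fas* (5.52 ± 0.99) and *Perp* (3.25 ± 0.42). Of 10 NRF2 target genes 1 was called higher, *Nqo1* (1.09 ± 0.17), and 0 lower, with a median of 0.28. The p53 targets summed to 40001, 85580 and 56072 (NO replicates 1, 2 and 3) against 26237 to 28702 in DM. In 16 of the 32 tested members the NO samples stood in this order, among them members with lower values in NO (*Stc1*, *Stc2*, *P4ha1*, *Fam162a*) as well as *Car12*, *Plod2* and *Bhlhe40*. The share of all tested genes in this order was not computed, so nothing is read from the count. Of all tested genes, 41.8% had their highest NO value in replicate 2 and 38.2% their lowest in replicate 1. Whether the members and the p53 targets are linked was not tested.

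**Figure D5:**
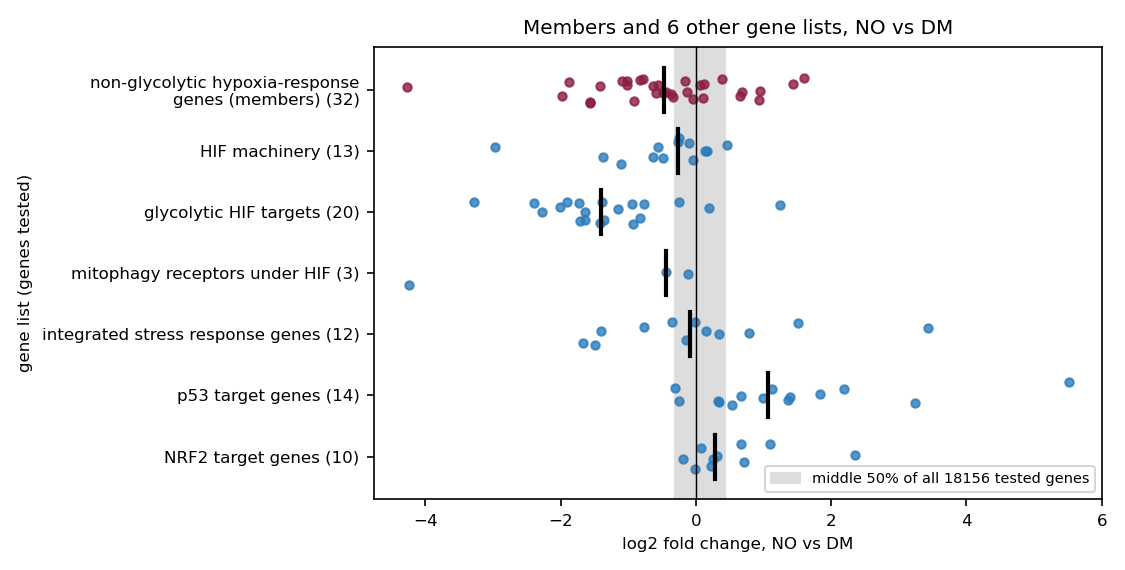
Log2 fold change in NO vs DM of the 32 tested members and of the genes of 6 other lists (points, with small vertical scatter), black bars marking medians and the grey band the range between the quartiles of all 18156 tested genes. The glycolytic genes have a median of -1.41, the members of -0.47 and the p53 targets of 1.06.

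The labelled cell type was borne out by the 10 markers of pluripotent cells, whose values summed to 114991 to 118112 in GS, 93824 to 103135 in DM and 99104, 59927 and 92114 in NO replicates 1, 2 and 3. In NO vs DM, *Utf1* was called lower (-1.59 ± 0.32), and *Pou5f1* passed the adjusted p at under 2-fold (-0.95 ± 0.26). *Utf1* was called higher in DM than in GS (2.18 ± 0.32). *Tfcp2l1* had the largest GS values of the list (30965, 31982 and 30213). It was called lower against GS in DM (-1.47 ± 0.18) and in NO (-1.25 ± 0.18). *Nanog* passed the adjusted p in DM vs GS at under 2-fold (-0.795 ± 0.19). The sums therefore do not describe each marker. Markers of other cells made up far smaller sums, and some were higher in NO than in DM. Calls of markers refer to NO vs DM unless GS is named. Of the 7 streak and mesoderm markers 3 were called higher, among them *Wnt3* (5.94 ± 0.78) and *T* (2.70 ± 0.74). Against GS, 3 of the 7 were called higher in NO and 1 lower, *T* (-3.04 ± 0.74). *T* had 137, 183 and 131 in GS, 10, 1 and 0 in DM and 8, 28 and 22 in NO. The 7 markers summed to 306 to 355 in GS, 125 to 155 in DM and 248 to 912 in NO, where *Wnt3* had 38, 581 and 162. The 5 endothelial markers in the table (*Kdr* is in this list and the previous one), with 2 of 4 tested called higher (*Tek*, 2.69 ± 0.34, and *Tie1*, 2.02 ± 0.59), summed to 2996 to 4128, 2535 to 2799 and 3508 to 5375. Most of each sum was *Pecam1*, with 3988, 2809 and 3388 in GS, 2600, 2317 and 2472 in DM and 2868, 3389 and 2995 in NO. *Pecam1* was not called in NO vs DM (0.32 ± 0.15). *Tie1* was low, at 2, 5 and 2 in DM and 6, 19 and 25 in NO.

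Trophoblast markers, 3 of 8 called higher in NO vs DM (*Tfap2c*, 2.41 ± 0.34, and *Hand1*, 2.23 ± 0.66), summed to 1571 to 1595 in GS, 955 to 1132 in DM and 1255 to 2326 in NO. Against GS, 2 were called higher in NO (*Hand1*, 2.95 ± 0.66, and *Krt18*, 1.62 ± 0.35) and 2 lower (*Cdx2*, -3.03 ± 0.69, and *Eomes*, -1.47 ± 0.22). *Tfap2c* was not called against GS (-0.35 ± 0.34), and *Hand1* had 11, 111 and 33 in NO. Primitive endoderm markers, 1 of 4 tested called higher (*Gata6*, 3.13 ± 0.73), summed to 108 to 165, 96 to 167 and 200 to 539. Fibroblast markers, 1 of 5 tested called higher (*Col1a1*, 1.56 ± 0.39), summed to 318 to 496, 412 to 447 and 381 to 406. Neural markers, 1 of 5 tested called lower (*Pax6*, -2.07 ± 0.54), summed to 1455 to 1857, 1463 to 1590 and 1139 to 1415. No marker that was in the table was at 0 in all samples. In bulk RNA, fewer cells of a kind and less RNA per cell cannot be told apart, and the part of these markers in the values of the hypoxia-response genes was not tested.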

How the data were processed

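Ribosomal-depleted total RNA of 9 mESC samples (3 per medium) had been sequenced on an Ion Torrent Proton. According to the study's methods and the submitters' processing notes, the authors used Reaper for trimming, STAR 2.4.0a for alignment to mm10 (GRCm38) and featureCounts 1.4.5-p1 for counting exonic reads per gene, leaving out reads that matched several genes or places. The deposited values are a normalised score, namely read counts divided by a DESeq2 size factor and rounded by the authors to whole numbers. They are not raw counts, so no count model was fitted. A column with sums over samples was not used.

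Log2(value + 1) of 18156 genes with a mean above 5 was fitted with limma 3.58.1 (R 4.3.3), all 9 samples together, medium as the only factor, with a mean-variance trend and two-sided Benjamini-Hochberg adjustment over all genes. Fold changes on this scale understate the change of low genes. The fit was tested on data with known answers. Depth was estimated from gaps among low values. Positions and exon overlaps come from GENCODE M21 (GRCm38), promoters from RefSeq (GRCm38.p6). Protein sequences were not used here.

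The members and lists were chosen with earlier results of these data known, so the p-values of members are not printed. The adjusted p serves as a threshold to sort members and not as a test of the list. Members called in a comparison are given in every sample, as are others singled out after their values were seen. From each list at most 2 genes called in NO vs DM are named by size of change. Some other marker genes are named because they make up much of a sum, were called against GS or passed the adjusted p. Not every marker gene of this kind is named. Medium and replicate number come from the labels. Whether equal numbers pair samples was checked by correlating deviations from group means. The values were 0.159, 0.167 and 0.296 for NO with DM, all above 0.1 and so read as pairing, but -0.178, 0.022 and -0.232 for DM with GS and -0.046, 0.050 and -0.106 for NO with GS. All reported fits are without the replicate block, whose result is given where it changed a member's pass in NO vs DM. Other filters, pseudocounts, scalings, weights, the replicate block and leaving out each sample were alternatives.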

Additional observations from a re-analysis of the deposited data

How the results depend on the processing

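No fold change of a called member was reversed: over 18 pairs of member and comparison and up to 20 alternatives each, 327 of 357 values stayed past both thresholds and 30 did not. Several alternatives could not move a fold change at all. These were the replicate block, fits of the compared media alone, other filters, moderation or weights, and leaving out a sample of the medium not compared. The absence of reversals and the 327 are therefore partly fixed in advance. Counts with no minimum fold change were 3 higher in DM vs GS, 13 lower in NO vs GS, and 13 lower and 1 higher in NO vs DM, and the last pair was again 13 and 1 with the replicate block and without NO replicate 2, alternatives chosen after seeing the data. With a minimum log2 fold change of 2 they were 0 higher and 0 lower in DM vs GS, 1 lower and 1 higher in NO vs GS and 1 lower in NO vs DM. Equal totals moved the median of all genes in NO vs GS by 0.108 on the log2 scale. Relative to it the median of the members was -0.236, against -0.237 as reported. Equal totals left 4 members called lower in NO vs GS (without *P4ha1*, *Ero1l* and *Higd1a*) and 1 higher in NO vs DM, as did quantile normalisation for the latter (1). The median in NO vs GS was -0.144 with equal totals, -0.463 with quantile normalisation and -0.368 with a minimum mean of 50. When each sample was left out in turn, members called higher ranged from 0 to 5 in NO vs GS and from 0 to 5 in NO vs DM, and members called lower from 5 to 9 and from 6 to 9. The 5 higher came without NO replicate 1 and the 5 lower in NO vs GS without GS replicate 3. The 6 came without DM replicate 1 and each 9 without NO replicate 2. Shares of all tested genes called under the alternatives were not computed, so these counts are not read as particular to the members. The medians ranged from -0.39 to -0.212 in NO vs GS, from -0.528 to -0.409 in NO vs DM and from -0.046 to 0.109 in DM vs GS. With the replicate block, the counts of called members in NO vs DM kept their size, and in NO vs GS, where equal numbers did not pair samples, *Kdm3a* no longer passed the adjusted p. The causes were not tested. Low read numbers limit members such as *Stc1*, *Lox*, *Car9*, *Adm* and *Bhlhe41*.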
